A study of Danio rerio with 6 samples.

Results

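A set of 9 chromatin repressor genes was followed by RNA sequencing of zebrafish heads (Danio rerio, 2 days post fertilization), in 3 libraries of total RNA from slbp1-/- mutants and 3 from wildtype siblings. The titles name the allele rw440, and the SLBP protein binds the stem-loop at the end of replication-dependent histone mRNA. The 9 genes were taken by symbol from the table of 32520 genes: ezh2, eed, suz12a, suz12b, hdac1, hdac3, suv39h1a, suv39h1b and ehmt2. All 9 were found and all 9 passed the count filter, among 15561 genes tested. The symbol source gives 8 of them only as upper-case names, so both suz12 copies appear as SUZ12 and both suv39h1 copies as SUV39H1. These copies are told apart here by Ensembl identifier, and which identifier is the a or the b copy is not given in the sources used here.

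The genes fall into 3 kinds of repressor. EZH2, EED and SUZ12 form the core of PRC2, the Polycomb complex that methylates histone H3 at lysine K27: EZH2 is the catalytic subunit, EED binds the methylated product and SUZ12 holds the complex together. SUV39H1 and EHMT2 (also called G9a) methylate H3 at K9, SUV39H1 mainly in constitutive heterochromatin and EHMT2 mainly in euchromatin. HDAC1 and HDAC3 remove acetyl groups from histones, HDAC1 in the NuRD, Sin3 and CoREST complexes and HDAC3 in the NCoR and SMRT complexes. In zebrafish, hdac1 is known to be needed for retinal progenitors to leave the cell cycle and become neurons.

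Total counts ran from 3421961 to 5395071 per library, and TMM scaling factors from 0.788 to 1.14, the lowest in mutant replicate 3. No label states that replicates are separate clutches or pools, so p-values measure only the spread between libraries, which may be technical. The slbp transcript itself was 1.75-fold higher in mutants (169 ± 21.5 against 96.6 ± 8.67 CPM, SD, n = 3, quasi-likelihood adjusted p = 0.00295 in edgeR), and with no description of the lesion this does not check the genotypes. The head neural marker list was detected in full, with summed levels of 1149 to 1444 CPM in mutants and 832 to 1048 CPM in siblings. CPM here means counts scaled to a common total by means of the TMM-scaled library total, and levels of different genes are not compared, because no transcript lengths were used.

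Of the 9 repressor genes, 4 rose in mutants at levels that passed the count filter in both groups, and 0 fell: EED, EZH2, 1 SUZ12 copy and the abundant SUV39H1 copy. The low SUV39H1 copy was called higher as well, but it passed the count filter only through the mutant libraries where it was high, so its call is not read as a test. The other 4, the second SUZ12 copy, EHMT2, HDAC1 and hdac3, did not pass the test. A gene was called at a Benjamini-Hochberg adjusted p under 0.05 over all tested genes by edgeR's quasi-likelihood test. By this rule 25.7% of all tested genes were called, 12.9% higher and 12.8% lower. No member was lower even at an unadjusted p under 0.05 (0 genes), nor by DESeq2 or limma-voom (0 each). Without the low copy, the 3 mutant libraries lay wholly above the 3 siblings for 7 of 8 genes, which held for 21.8% of all tested genes. The median log2 fold change was 0.59 over those 8 genes and 0.0045 over all tested genes.

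**Figure D1:**
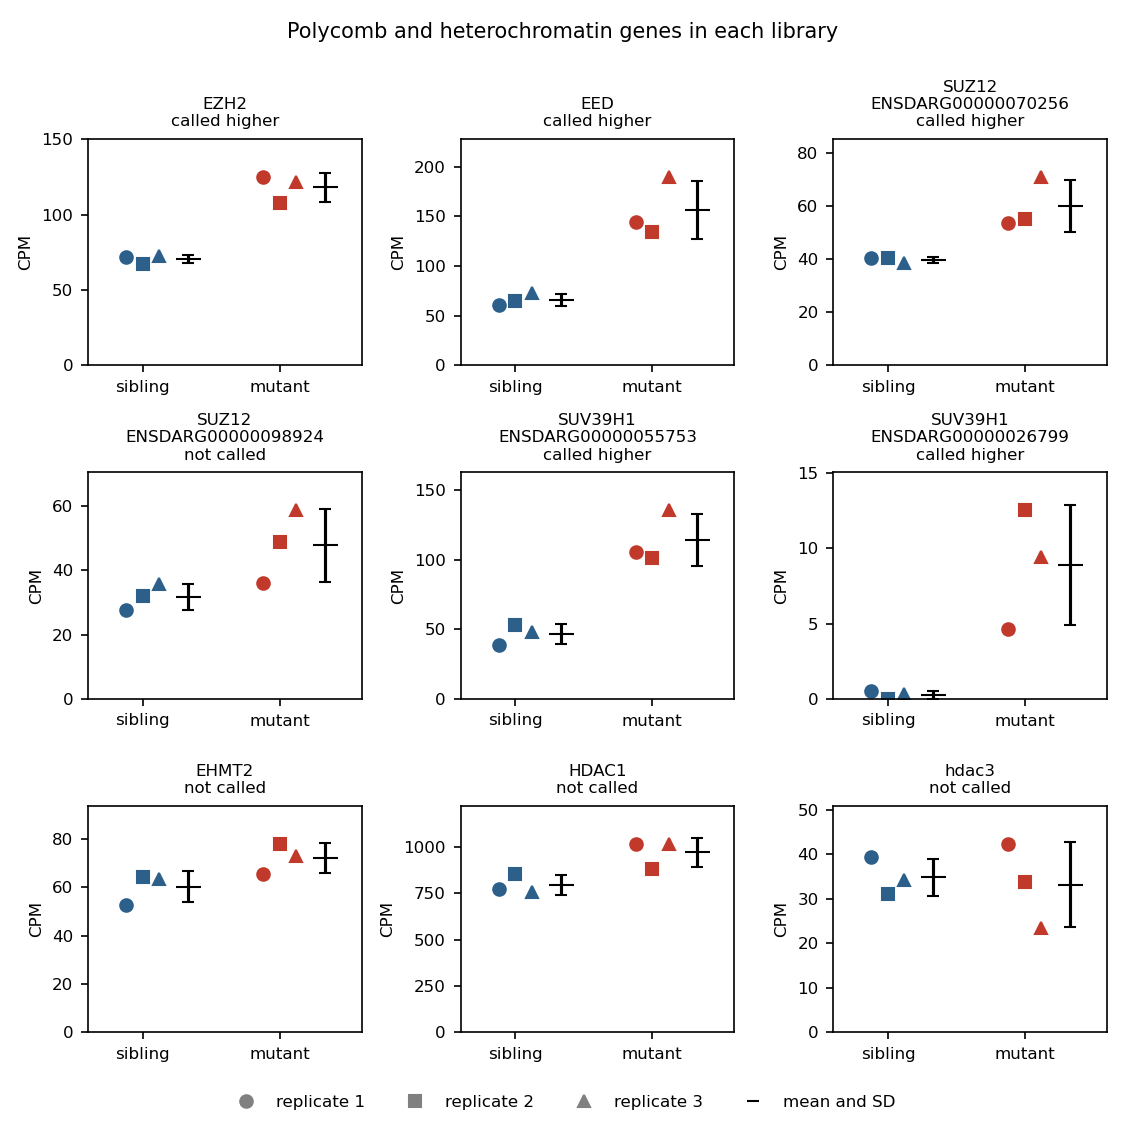
CPM of each of the 9 genes in the 3 sibling (blue) and 3 mutant (red) libraries, with the mean and SD in black, on axes that start at 0. The groups separate in 7 of 8 panels and overlap for hdac3, while mutants lay wholly above siblings for 21.8% of all tested genes. The panel of SUV39H1 (ENSDARG00000026799) is not counted, because this gene passed the count filter only through mutants.

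Among the PRC2 core genes, EED had the largest difference. EED (ENSDARG00000099640) had 145, 135 and 190 CPM in mutant replicates 1 to 3 and 60.5, 64.9 and 72.5 CPM in sibling replicates 1 to 3. Its lowest mutant library was well above its highest sibling, and mutant replicate 3 was the highest of all. EED rose 2.37-fold, by 1.24 ± 0.17 (SE) on the log2 scale, with a quasi-likelihood adjusted p of 0.000305 in edgeR.

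The catalytic subunit gene EZH2 (ENSDARG00000010571) had 125, 107 and 122 CPM in mutants and 71.7, 67.3 and 72.7 CPM in siblings. Both groups were tight and did not overlap. The rise was 1.67-fold, with a 95% interval of 1.34 to 2.09 and a quasi-likelihood adjusted p of 0.00312 in edgeR. The call held in all 14 alternative fits, with log2 changes of 0.47 to 0.80. The smallest came with total counts alone, a scaling that moved the median of all genes to -0.26, and there the adjusted p was 0.0484.

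Both SUZ12 copies were about 1.5-fold higher, close to the threshold of the test. SUZ12 (ENSDARG00000070256) had 53.5, 55.2 and 71.1 CPM in mutants and 40.4, 40.4 and 38.4 CPM in siblings. The siblings were nearly level, and mutant replicate 3 stood above the other 2 mutants. This copy rose by 0.59 ± 0.17 (SE) on the log2 scale, a 1.51-fold change, with a quasi-likelihood adjusted p of 0.0229 in edgeR. That call was lost without mutant replicate 3 (adjusted p = 0.0659 in edgeR), without sibling replicate 1 (0.0647), without sibling replicate 2 (0.0638), without sibling replicate 3 (0.0844) and with total counts alone (0.205). SUZ12 (ENSDARG00000098924) had 36.1, 48.8 and 58.8 CPM in mutants and 27.7, 31.9 and 35.8 CPM in siblings, so that mutant replicate 1 lay just above the highest sibling. Its log2 difference was 0.59 ± 0.21 (SE), with an adjusted p of 0.0524 in edgeR, and it was not called; the unadjusted 95% interval of the fold ran from 1.103 to 2.04. Without mutant replicate 1 the adjusted p was 0.0276, and with the replicate number as a block 0.0138 in edgeR.

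The 2 SUZ12 copies showed no detectable difference in their response. The log2 ratio of the first to the second copy within a library averaged 0.34 ± 0.20 in mutants and 0.33 ± 0.22 in siblings (SD, n = 3, exact two-sided permutation p = 0.9). Such a ratio does not depend on library scaling, but it does depend on how reads that fit both copies were counted, which is not given in the sources used here. With 3 libraries against 3 the smallest p this permutation test allows is 0.1, so none of the 6 ratios computed could pass 0.05.

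The abundant SUV39H1 copy changed about as much as EED. SUV39H1 (ENSDARG00000055753) had 105, 101 and 136 CPM in mutants and 38.8, 53.3 and 47.9 CPM in siblings. The lowest mutant library lay far above the highest sibling. The rise was 2.43-fold, by 1.28 ± 0.18 (SE) on the log2 scale, with a quasi-likelihood adjusted p of 0.000318 in edgeR.

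The other copy, SUV39H1 (ENSDARG00000026799), was close to undetected in siblings. Mutant replicates 1 to 3 had 20, 55 and 40 counts and siblings 2, 0 and 2, which is 4.63, 12.5 and 9.45 CPM against 0.517, 0 and 0.346 CPM. All 3 siblings lay below the floor of 3 counts per library, while the mutants varied among themselves with replicate 2 highest. The pooled counts of 115 and 4 gave a ratio of 33.5, with an exact 95% interval of 12.7 to 125.0 that covers counting error only. This gene passed the count filter only through its mutant libraries, so no fitted fold change or p-value is given for it.

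The low copy's share of the counts of both copies was 4.21%, 11.1% and 6.51% in mutant replicates 1 to 3, from 475, 497 and 614 counts. In siblings it was 1.32%, 0% and 0.717%, from 152, 289 and 279 counts. For the count of 0 in sibling replicate 2 the exact 95% upper limit of the share was 1.27%, and a count at the floor of 3 would be 1.04%. The group shares did not overlap, but the exact 95% intervals (Clopper-Pearson, counting error only) of mutant replicate 1, 2.59% to 6.43%, and sibling replicate 1, 0.16% to 4.67%, did. Because the gene passed the count filter only through its mutant libraries, these shares are not read as a test. With 0.5 counts added, because 1 sibling library had none, the log2 ratio of the low to the abundant copy was 3.53 higher in mutants (exact two-sided permutation p = 0.1, the smallest possible, or 0.2 adjusted over the 6 ratios). That size rests on sibling counts below the floor and on the counts added, so this ratio is not read as a test. The difference was 2.59 without sibling replicate 2 and 4.22 without sibling replicate 1.

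EHMT2 (ENSDARG00000102325) differed little between the groups. It had 65.5, 78.0 and 72.7 CPM in mutants and 52.8, 64.2 and 63.5 CPM in siblings, so the lowest mutant was only just above the highest sibling. The log2 difference was 0.26 ± 0.16 (SE), with a quasi-likelihood adjusted p of 0.254 in edgeR and a 95% interval of the fold from 0.942 to 1.52. With total counts alone, which moved the median of all genes to -0.26, the difference was -0.0024. The ratio of EHMT2 to EHMT1 (ENSDARG00000026634), which encodes its binding partner GLP, had group means of -0.57 ± 0.13 and -0.55 ± 0.21 on the log2 scale in mutants and siblings (SD, n = 3, exact two-sided permutation p = 0.9).

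Neither deacetylase gene was called. HDAC1 (ENSDARG00000015427) had 1019, 882 and 1015 CPM in mutants and 774, 856 and 756 CPM in siblings, with mutant replicate 2 close to sibling replicate 2. Its log2 difference was 0.29 ± 0.19 (SE), with an adjusted p of 0.277 in edgeR's quasi-likelihood test and a 95% interval of the fold from 0.924 to 1.62. With total counts alone the difference was 0.022, under a scaling that moved the median of all genes to -0.26.

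The hdac3 gene (ENSDARG00000037514) was the only member whose groups overlapped. It had 42.4, 33.8 and 23.4 CPM in mutants and 39.3, 31.0 and 34.1 CPM in siblings, and mutant replicates 1 and 3 were the highest and the lowest of all 6 libraries. The log2 difference was -0.07 ± 0.22 (SE), with a quasi-likelihood adjusted p of 0.864 in edgeR and a 95% interval of the fold from 0.685 to 1.33. The difference was 0.14 without mutant replicate 3 and 0.02 without sibling replicate 1. The log2 ratio of HDAC1 to hdac3 was 4.91 ± 0.46 in mutants and 4.52 ± 0.25 in siblings (SD, n = 3), with overlapping groups and an exact two-sided permutation p of 0.3.

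**Figure D2:**
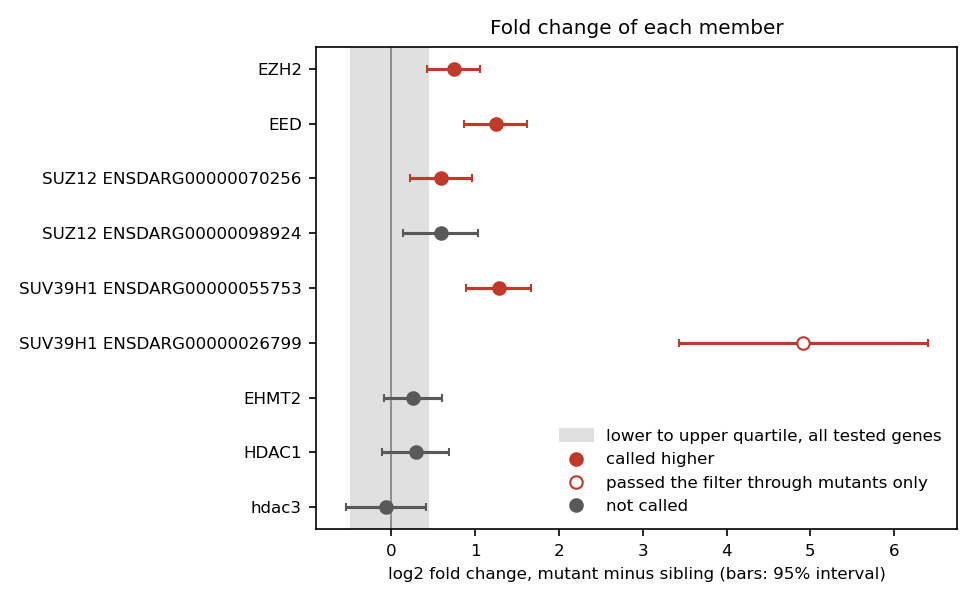
Log2 fold change of each gene, mutant minus sibling, with its unadjusted 95% interval (bars), beside the lower to upper quartile of all tested genes (grey band, -0.48 to 0.43). Called genes are in red. The open point is SUV39H1 (ENSDARG00000026799), which passed the count filter only through mutants. Its fitted value and interval depend on the counts the fit adds to its near-empty sibling libraries and are not read as a test. EHMT2, HDAC1 and hdac3 lie within the grey band.

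Genes of cycling cells, neurons, skeletal muscle and cartilage moved with these results. Of tested markers, 94.7% of the proliferation list rose, against 12.9% of all tested genes. In the neuron, skeletal muscle and cartilage lists 70.6%, 80% and 80% fell, against 12.8% of all tested genes. Of 19 tested markers of proliferating cells 18 rose and 0 fell, with a summed level of 11166 to 14816 CPM in mutants and 4155 to 5854 CPM in siblings. Of 17 tested neuron markers 12 fell and 0 rose, with a summed level of 997 to 1497 CPM in mutants and 2587 to 3339 CPM in siblings. No neuron marker was higher at an unadjusted p under 0.05 in edgeR, or by DESeq2 or limma-voom (0 genes each), and the same held for proliferation markers lower. No gene of either list was at 0 in any library. Of 10 skeletal muscle markers 8 fell and 0 rose, with a median log2 fold change of -2.12 and a summed level of 38.0 to 77.4 CPM in mutants and 157 to 284 CPM in siblings. Of 10 cartilage markers 8 fell and 0 rose, with a median of -1.72 and a summed level of 799.9 to 1192 CPM in mutants and 2476 to 3112 CPM in siblings, while the neuron median was -1.44. In each of these 2 lists 1 gene was at 0 in at least 1 library. In whole heads, fewer cells of a type and less RNA per cell cannot be told apart, and the part of these shifts in the repressor results was not tested.

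The repressors were also set against the proliferation markers. Dividing every member by the same sum keeps the order of their fold changes by construction. PCNA, the sliding clamp of DNA polymerase, rose 3.61-fold, from 306 ± 47.6 to 1103 ± 266 CPM (SD, n = 3), and the log2 ratio of EZH2 to PCNA was -3.20 ± 0.28 in mutants and -2.10 ± 0.27 in siblings. The groups did not overlap, with an exact two-sided permutation p of 0.1, the smallest possible. A ratio of each member to the summed counts of the proliferation list was chosen after its values were seen and has no test. EED and SUV39H1 (ENSDARG00000055753) changed about as much as that sum, with log2 differences of -0.06 and -0.0061 and overlapping groups. EZH2 was at -0.55 and the SUZ12 copies at -0.71 and -0.72, while HDAC1, EHMT2 and hdac3 were at -1.003, -1.03 and -1.39, all with groups that did not overlap. Because the sum itself rose without overlap, a gene with no change of its own comes out lower by this ratio. The share of all tested genes that would do so was not computed, so the lack of overlap is not read as a result about these members. The low SUV39H1 copy is left out here because its sibling counts were below the floor.

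**Figure D3:**
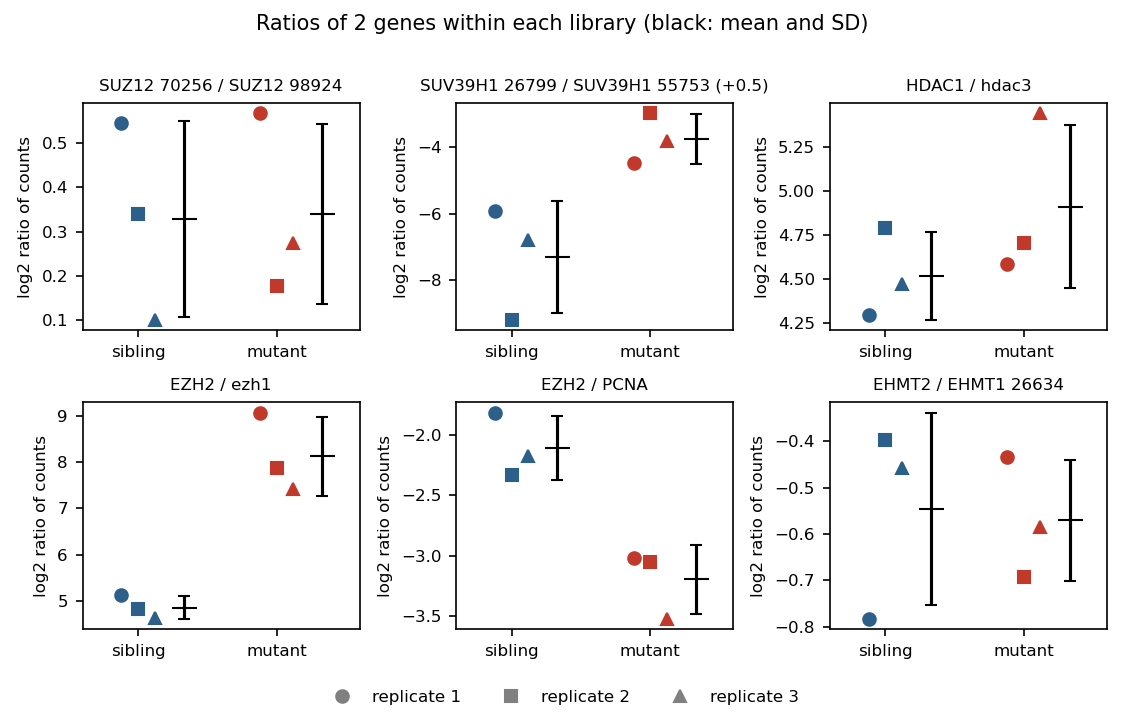
Log2 ratio of the counts of 2 genes within each library for the 6 ratios tested, siblings in blue and mutants in red, with the mean and SD in black; identifiers are cut to their last 5 digits, and 0.5 counts were added for SUV39H1 alone. The groups separate for the SUV39H1 copies, for EZH2 over ezh1 and for EZH2 over PCNA, and overlap in the other panels; the siblings of the SUV39H1 panel and the mutants of the ezh1 panel rest on counts of 3 or fewer of 1 gene.

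The genes whose pattern over the 6 libraries was most like that of EZH2 were HMGN2, npat, PSMA4, ddx61 and ETF1. Likeness was the root mean square difference of log2 CPM after centring each gene on its mean, over 10065 genes with a symbol and an average log2 CPM of at least 3. It was 0.047 for HMGN2, a nucleosome-binding protein gene, and 0.053 for npat, which encodes a coactivator of histone gene transcription. PSMA4, a proteasome subunit gene, had 0.054, ddx61 0.061 and ETF1, the translation release factor gene, 0.066, against a median of 0.45 over all genes searched. These genes were picked by this same measure, so values below the median are given by construction. Of the other members, SUZ12 (ENSDARG00000070256) was nearest to EZH2 at 0.16.

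Chromatin genes related to the members were taken as 11 lists. Besides partners, the lists hold enzymes that remove the members' marks and enzymes for other marks. Of 120 tested genes in them 19 rose, 20 fell and 81 were not called, which is 15.8% higher and 16.7% lower, against 12.9% and 12.8% of all tested genes. These fallers include ezh1, whose call is not read as a test because it passed the count filter only through siblings. With total counts alone 7 rose, and leaving out 1 library gave 8 to 14 risers and 11 to 21 fallers. The lowest counts came without sibling replicate 1 (8 risers, 11 fallers), without sibling replicate 3 (9 risers), without mutant replicate 1 (10 and 11) and without sibling replicate 2 (12 fallers). Of the 39 called genes, 15 kept the call in all 14 alternative fits.

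**Figure D4:**
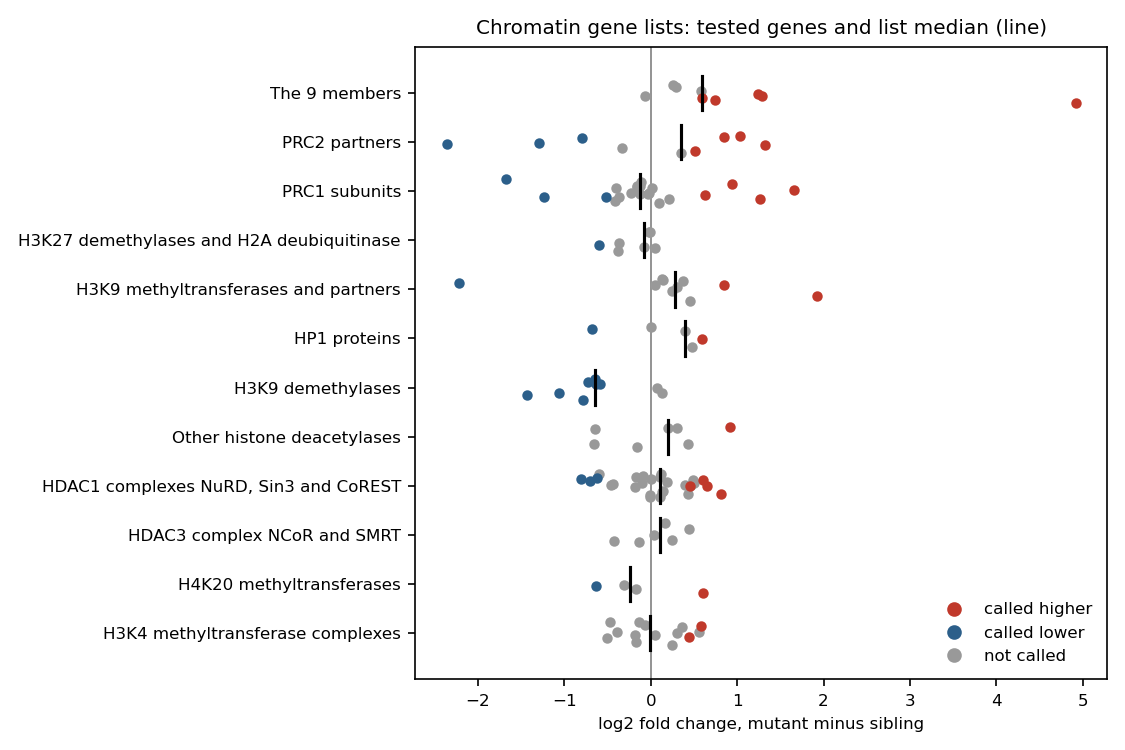
Log2 fold change, mutant minus sibling, of each tested gene in the 11 chromatin lists and the 9 members, coloured by call, with the list median as a black line; points are spread vertically only to separate them. The members' median is 0.59 and the H3K9 demethylases' -0.65, while the other lists lie between -0.24 and 0.40. SUV39H1 (ENSDARG00000026799) among the members passed the count filter only through mutants, and ezh1 among the PRC2 partners only through siblings. Neither point is read as a test.

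Other PRC2 subunits were split. Of 9 tested partners 4 rose (44.4%) and 3 fell (33.3%), against 12.9% and 12.8% of all tested genes. The fallers include ezh1, which passed the count filter only through its sibling libraries, so its call is not read as a test. Their median log2 fold change was 0.35. RBBP4, a histone-binding subunit shared with NuRD and Sin3, rose from 434 ± 29.1 to 891 ± 62.2 CPM (SD, n = 3, adjusted p = 0.00139 in edgeR), and the related rbb4l rose by 0.85 ± 0.18 on the log2 scale. JARID2 (ENSDARG00000060925), a targeting cofactor of PRC2, fell from 62.4 ± 6.02 to 35.8 ± 3.21 CPM, by 0.80 on the log2 scale. The other JARID2 copy (ENSDARG00000062268), named after its values were seen, was at -0.34 with overlapping groups. It was not called (adjusted p = 0.633 in edgeR). The fallers numbered 1 without mutant replicate 2 and without any 1 of the 3 siblings.

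EZH1, the alternative catalytic subunit, was barely detected, with lower counts in mutants. The ezh1 gene (ENSDARG00000037894) had 1, 2 and 3 counts in mutants and 8, 13 and 17 in siblings. The pooled counts of 38 in siblings and 6 in mutants gave a level 5.44-fold higher in siblings, with an exact 95% interval of 2.28 to 15.7 that covers counting error only. The gene passed the count filter only through its sibling libraries, so neither the pooled ratio nor its call as 1 of the 3 fallers is read as a test. The call was lost in 6 of the 14 alternatives. Over the same libraries EZH2 had 1527 counts in mutants and 1062 in siblings. The log2 ratio of EZH2 to ezh1 was 3.28 higher in mutants, or 2.96 with 0.5 counts added, without overlap (exact two-sided permutation p = 0.1, the smallest possible, or 0.2 adjusted over the 6 ratios). Its size rests on mutant counts of ezh1 at or below the floor, so this ratio is not read as a test.

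In PRC1, the complex that ubiquitinates H2A and compacts Polycomb-bound chromatin, 4 of 21 tested subunits rose and 3 fell, with a median of -0.12. That is 19.0% and 14.3%, against 12.9% and 12.8% of all tested genes. The polyhomeotic gene phc1 rose from 44.5 ± 6.95 to 107 ± 12.3 CPM (adjusted p = 0.000274 in edgeR), while its relative phc2b fell from 116 ± 11.4 to 49.2 ± 14.2 CPM (SD, n = 3, adjusted p = 0.000892). CBX8 (ENSDARG00000098771), a chromodomain subunit, fell from 7.22 ± 0.457 to 2.24 ± 0.547 CPM, from low counts of 10, 12 and 7 in mutants. The other CBX8 copy (ENSDARG00000087327), named after its values were seen, was at -0.40 on the log2 scale. Its groups overlapped and it was not called (adjusted p = 0.372 in edgeR). RNF2, the catalytic ubiquitin ligase, had 140 and 153 CPM in mutants and siblings and was not called (adjusted p = 0.56); it was named after its values were seen. The risers numbered 1 without sibling replicate 1 or 3 and with total counts alone, and 2 without mutant replicates 2 or 3 or sibling replicate 2.

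In a list of 7 genes for removal of the PRC2 and PRC1 marks, 1 was lower (14.3%, against 12.8% of all tested genes) and 0 higher. The median was -0.08. The H3K27 demethylase gene kdm6bb fell from 174 ± 13.97 to 115 ± 16.8 CPM (SD, n = 3, adjusted p = 0.0162 in edgeR). That call was lost without mutant replicate 1 (0.0738), sibling replicate 2 (0.0533) or sibling replicate 3 (0.0674). None of the 7 was higher at an unadjusted p under 0.05, in DESeq2 or in limma-voom (0 each).

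Among H3K9 methyltransferase genes and their partners other than the members, 2 of 10 rose and 1 fell, with a median of 0.28. That is 20% and 10%, against 12.9% and 12.8% of all tested genes. The larger riser was atf7ip, which encodes the nuclear partner that stabilises SETDB1, and which rose from 265 ± 24.5 to 1004 ± 92.8 CPM (SD, n = 3), a 3.78-fold change with a quasi-likelihood adjusted p of 1.91e-05 in edgeR. The methyltransferase gene setdb1a rose from 56.7 ± 7.36 to 102 ± 4.82 CPM (adjusted p = 0.00202). The faller was prdm2a, at 6.57 ± 1.06 CPM in siblings and 1.38 ± 1.06 CPM in mutants. This 4.64-fold lower level was the largest change of the 3 called genes but rests on low counts. Mutants had 10, 7 and 1 counts, the last below the floor, and siblings 30, 31 and 36. The other copy, PRDM2 (ENSDARG00000076451), was named after its values were seen. It had 70.9 ± 11.1 CPM in siblings and 78.0 ± 6.24 CPM in mutants and was not called (adjusted p = 0.581 in edgeR).

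H3K9 demethylase genes were lower, with 7 of 9 called lower and 0 higher, against 12.8% of all tested genes called lower, and a median log2 fold change of -0.65. The count of fallers was 4 without mutant replicate 1, sibling replicate 1 or sibling replicate 2, and 5 in DESeq2; 0 were higher at an unadjusted p under 0.05 or with DESeq2 or limma-voom. The lowest by p was kdm7aa, a demethylase gene of the PHF8 family, which fell from 52.8 ± 10.5 to 19.6 ± 1.12 CPM (SD, n = 3, adjusted p = 0.000276 in edgeR). JMJD1C fell from 117 ± 18.5 to 68.0 ± 8.42 CPM and KDM4B from 309 ± 25.4 to 198 ± 6.496 CPM. PHF8 and kdm3b were not called, at log2 differences of 0.14 and 0.07.

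**Figure D5:**
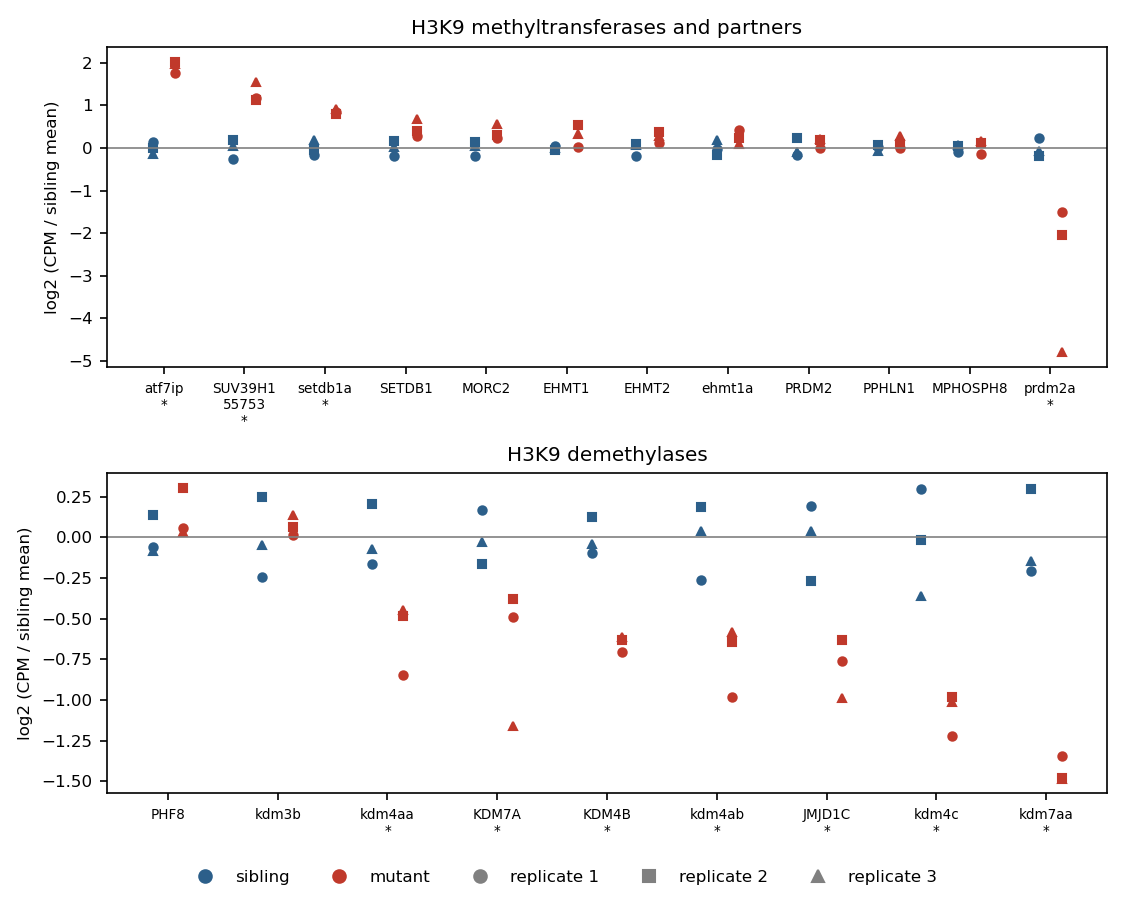
CPM of each library as log2 of its ratio to the sibling mean, siblings in blue and mutants in red, for H3K9 methyltransferase genes and partners (top) and H3K9 demethylase genes (bottom); asterisks mark called genes and SUV39H1 (ENSDARG00000026799) is left out because 1 library had no count. The mutant points of the 7 called demethylases and of prdm2a lie below all sibling points, while those of atf7ip, SUV39H1 and setdb1a lie above. Those of SETDB1, MORC2 and EHMT2, which were not called, also lie above. Such separation held for 21.8% of all tested genes in each direction.

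HP1 genes, whose proteins bind methylated H3K9, were divided, with 1 of 5 higher, 1 lower and a median of 0.40. That is 20% in each direction, against 12.9% higher and 12.8% lower over all tested genes. CBX3 (ENSDARG00000003860) rose from 231 ± 25.5 to 349 ± 58.6 CPM (SD, n = 3, adjusted p = 0.0268 in edgeR) and CBX1 (ENSDARG00000054442) fell from 56.6 ± 8.80 to 35.2 ± 2.84 CPM (0.0132). The other CBX1 copy (ENSDARG00000004189), named after its values were seen, went the other way. It had 131 ± 21.8 CPM in siblings and 173 ± 7.96 CPM in mutants and was not called (adjusted p = 0.0873 in edgeR). DESeq2 and limma-voom each called 2 HP1 genes higher and 1 lower. At an unadjusted p under 0.05 in edgeR, 3 were higher and 1 lower. The CBX3 call was lost with total counts alone (0.105) and without mutant replicates 1 (0.0578) or 3 (0.061) or sibling replicates 1 (0.0977) or 3 (0.112). The call of CBX1 (ENSDARG00000054442) was lost without mutant replicate 1 (0.0534) or sibling replicate 1 (0.0637).

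Partners of HDAC1 were called about as often as all tested genes. In the NuRD, Sin3 and CoREST list 4 of 28 tested genes rose (14.3%, against 12.9% of all tested genes) and 3 fell (10.7%, against 12.8%), with a median of 0.11. RCOR2, a CoREST scaffold gene, rose from 174 ± 24.5 to 306 ± 38.1 CPM (SD, n = 3, adjusted p = 0.00471 in edgeR). RCOR1 rose by 0.60 ± 0.16 on the log2 scale, a call lost with total counts alone (adjusted p = 0.192 in edgeR), without mutant replicate 1 (0.0774) or without sibling replicate 1 (0.0767). The counts of the list were 1 higher and 1 lower without mutant replicate 1 or without sibling replicate 1, 2 higher without mutant replicate 2 or sibling replicate 3, and 1 higher and 5 lower with total counts alone.

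None of the 6 genes of the HDAC3 complex was called in either direction (0 higher and 0 lower by edgeR's quasi-likelihood test, DESeq2 or limma-voom), with 0 higher and 1 lower at an unadjusted p under 0.05. Their median was 0.10. Of 7 other deacetylase genes 1 rose (14.3%, against 12.9% of all tested genes) and 0 fell. The riser, HDAC10, went from 16.3 ± 2.45 to 30.6 ± 6.21 CPM (SD, n = 3, adjusted p = 0.0114 in edgeR). That call was lost with total counts alone (0.092), without mutant replicate 1 (0.0574) or without sibling replicate 3 (0.0567). At an unadjusted p under 0.05, 2 of the 7 were lower, and 0 were called lower by DESeq2 or limma-voom.

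Enzymes for 2 further marks served as a comparison. Of 4 H4K20 methyltransferase genes 1 rose, kmt5ab, from 65.2 ± 7.65 to 99.5 ± 1.21 CPM (SD, n = 3, adjusted p = 0.0112 in edgeR), and 1 fell, KMT5B, from 121 ± 10.3 to 78.2 ± 11.5 CPM (0.0129). Each is 25% of the list, against 12.9% higher and 12.8% lower over all tested genes. Both calls were lost without sibling replicate 1 (0.0575 and 0.0539), and that of kmt5ab with total counts alone (0.16). Of 14 tested genes of the H3K4 methyltransferase complexes, which oppose Polycomb, 2 rose, DPY30 (adjusted p = 0.0327) and RBBP5 (0.0468), and 0 fell. The risers are 14.3% of the list, against 12.9% of all tested genes. DESeq2 called neither direction (0 genes), limma-voom called 2 higher and 0 lower, and 1 was lower at an unadjusted p under 0.05. Without mutant replicate 2 RBBP5 was at 0.085, and without any 1 of the other libraries 0 of the 14 were called higher.

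Hox genes are classical targets of Polycomb repression, and in these heads most were near or below the floor. Of 48 genes found, 5 were tested and 0 were called in either direction by edgeR's quasi-likelihood test or limma-voom, with 1 lower and 0 higher at an unadjusted p under 0.05; DESeq2, run without that filter, called 1 higher, HOXB5 (ENSDARG00000054030), at 9, 8 and 4 counts in mutants and 1, 0 and 0, all below the floor, in siblings. The median change of the 5 tested genes was -0.95 on the log2 scale. Together they had 152, 261 and 14 counts in mutant replicates 1 to 3 and 305, 329 and 662 in siblings. These raw sums, not scaled to library size, were lower in every mutant library. Over all 48 Hox genes the scaled sums of the groups overlapped, at 15.4 to 76.2 CPM in mutants and 62.9 to 123.9 CPM in siblings. Of the 43 Hox genes too low to be tested, 30 had a count in at least 1 mutant library and 10 in at least 1 sibling library. Of these, 21 had counts in mutants only and 1 in siblings only. Over all 16959 genes too low to be tested, 1860 had counts in mutants only and 1010 in siblings only. Per library, 17, 19 and 18 of the 43 had a count in the mutants and 10, 4 and 7 in the siblings, from 51 to 73 counts in a mutant library and 12 to 54 in a sibling library. Of all 16959 genes too low to be tested, 5721, 5872 and 5141 had a count in mutant replicates 1 to 3. In sibling replicates 1 to 3 the numbers were 5049, 4852 and 5371, so over all such genes the groups overlapped. These counts were made after the values were seen and have no test. The list of posterior trunk and tail genes, most of them Hox genes, summed to 0.695 to 1.42 CPM in mutants and to 0 in siblings, and whether trunk tissue was present in the samples was not tested.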

How the data were processed

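The authors deposited raw counts per Ensembl gene for 6 libraries; HISAT2 and featureCounts are named with build GRCz11, per the submitters' processing notes, without versions. Strand and multi-mapping settings are not stated there, so values of near-identical copies are uncertain. Groups were compared with edgeR 4.0.16 under R 4.3.3 (filterByExpr, TMM, robust quasi-likelihood test, two-sided, all 6 libraries, Benjamini-Hochberg over all tested genes, threshold 0.05). The procedure was tested on simulated data. Log2 fold changes are mutant minus sibling. Symbols came from a table of gene names; a gene listed under a zebrafish name was matched by that name, or else by the shared upper-case name, taking all its copies. Alternatives were other scalings, filters, DESeq2 1.42.0, limma-voom (limma 3.58.1), a replicate block and leaving out each library. Ratios within libraries were tested by exact permutation. Other lists gave 8 of 10 skeletal muscle and 8 of 10 cartilage genes lower, 0 of 8 lens genes called, 1 of 8 blood genes higher, and 5 of 14 head neural genes higher and 1 lower. The blood share higher was 12.5%, close to the 12.9% of all tested genes. The head neural shares were 35.7% higher and 7.14% lower, against 12.9% and 12.8%. Named genes were slbp, the 9 members, the genes of the ratios, up to 3 called genes per list by p, and the 5 most like EZH2; others are marked, apart from PHF8 and kdm3b, and 1 gene that the rule takes is not reported here. The members and lists were chosen with earlier results of these data known.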

Additional observations from a re-analysis of the deposited data

How the results depend on the processing

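Scaling by total counts, with a median over all genes of -0.26, gave fewer higher calls: 1095 genes, and 7 genes of the chromatin lists, were called higher, against 2015 and 19. Under it EHMT2 changed sign to -0.0024 and SUZ12 (ENSDARG00000070256), at 0.31, lost its call; relative to that median both kept their direction. SUZ12 (ENSDARG00000098924) gained a call at 0.58 both with no low-count filter and with the replicate block. Leaving out 1 library gave 1158 to 1811 genes lower, with fewer samples by construction. In the chromatin lists it gave 8 to 14 genes higher and 11 to 21 lower. It gave log2 changes of 0.46 to 0.66 for SUZ12 (ENSDARG00000070256), 0.42 to 0.74 for the other copy, and -0.29 to 0.14 for hdac3. The log2 difference in the ratio of the SUZ12 copies ran from -0.10 to 0.12 and that of EHMT2 to EHMT1 from -0.14 to 0.0499; the cause was not tested. Over the 14 alternatives 4 to 6 members were called higher, counting the low SUV39H1 copy, and 0 lower. EED, EZH2 and SUV39H1 (ENSDARG00000055753) were called in all of them. The replicate block gave 5059 calls over all genes, against 4004 in the main fit. No label pairs the libraries. Deviations from the group means had correlations of 0.24, 0.09 and 0.18 between mutant and sibling replicates of the same number, 1 to 3. Between replicates of unlike number they were lower, from -0.22 to 0.06. The deviations of a gene sum to 0 within each group. Positive values at like number therefore make those at unlike number lower on average by construction. Whether the libraries were prepared in pairs was not tested, and the main fit has no block. The floor of 3 counts was 0.519 to 0.776 CPM, depending on the library.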
